A study of Homo sapiens with 3 samples.

Results

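The proteasome is the protease complex that breaks down most short-lived and damaged proteins after they have been tagged with ubiquitin. Its barrel-shaped core particle is built from alpha subunits (PSMA genes), which form the outer rings and gate the entrance, and beta subunits (PSMB genes), which form the inner rings and include the catalytic sites. A regulatory particle caps the core, and consists of a base with ATPases (PSMC genes) that unfold the substrate and a lid (PSMD genes) that holds the enzyme removing ubiquitin. Other caps that act without ubiquitin are encoded by PSME genes, PSMF1 encodes an inhibitor of the core, and PSMG genes encode chaperones of core assembly. Because each ring needs its subunits in fixed proportion, the genes are usually expressed together, and the transcription factor NFE2L1 is known to raise them as a group when proteasome activity is short.

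The genes examined were those whose symbol is PSMA to PSMG followed by a number, without PSMB8 and PSMB9, which gave 46 of the 25270 gene rows in the files. Of the 46, 44 had a mean of at least 1 FPKM over the libraries and were kept, among 12210 genes kept in all, and the other 2 were PSMA8, a testis form listed at 0 in all 3 libraries, and PSMB11, a thymus form whose highest value was 0.0201 FPKM. FPKM counts the fragments of a gene relative to its transcript length and to the fragments sequenced, so that levels of different genes can be set side by side.

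RNA had been sequenced from 3 cultures of a human hepatocellular carcinoma cell line, with 1 library per condition. HepG2/wild is the parental line, not treated, HepG2/metR are cells that outlived exposure to metformin, an inhibitor of respiratory complex I, for more than 5 months, and HepG2/metR+oxamate are HepG2/metR cells kept for 24 h in 40 mM oxamate, which blocks lactate dehydrogenase. HepG2/metR was designed as a cell model with high glycolysis and high lactate, and oxamate was used to lower the lactate. It is 1 selected culture, and no untreated culture of the same age was among the libraries. With 1 library per condition no difference below has a replicate check, no test could be run, and variation between cultures or library preparations cannot be told apart from the conditions. Values listed per library are those of single measurements.

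The files held 1 value per gene, log2(FPKM + 1), and the number of reads was not given. From the smallest values, the depth relative to HepG2/wild was 1.21 in HepG2/metR and 1.24 with oxamate. The summed FPKM of all genes was 562382 in HepG2/wild, 534646 in HepG2/metR and 473773 with oxamate. Of 8 hepatocyte markers (ALB, AFP, APOA1, APOA2, TTR, SERPINA1, TF and HNF4A), all were at 68.7 FPKM or more in HepG2/wild, whereas 7 were under 1 FPKM in both other libraries. The cultures differed in much more than the proteasome, and the part of that difference in the values below was not tested.

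Promoter sequences are shown first for the 7 genes that passed a fold threshold in either comparison (see their values further on), so that the text around their start sites can be compared. The windows, from RefSeq on GRCh38.p14, hold 250 bases before and 50 bases from the first listed start of each gene, written 5′ to 3′ on the strand of the gene. They lie at chr14:23035171-23035470 (minus strand) for PSMB5, chr14:35292067-35292366 (plus strand) for PSMA6, chr14:24135944-24136243 (plus strand) for PSME1, chr14:24146561-24146860 (minus strand) for PSME2, chr2:53970944-53971243 (minus strand) for PSME4, chr14:58244593-58244892 (plus strand) for PSMA3 and chr11:47426390-47426689 (minus strand) for PSMC3. Capitals mark matches on either strand to TGACNNNGC, the core of the antioxidant response element that NFE2L1 and NFE2L2 bind together with small MAF proteins, or to CCAAT, the box bound by NF-Y (read as ATTGG on the other strand).
PSMB5: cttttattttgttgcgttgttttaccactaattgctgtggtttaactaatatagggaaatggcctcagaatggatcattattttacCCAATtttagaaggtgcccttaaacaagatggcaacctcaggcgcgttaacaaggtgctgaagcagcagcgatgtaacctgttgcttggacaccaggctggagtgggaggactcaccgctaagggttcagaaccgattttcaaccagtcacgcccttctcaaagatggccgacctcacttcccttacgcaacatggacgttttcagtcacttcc
PSMA6: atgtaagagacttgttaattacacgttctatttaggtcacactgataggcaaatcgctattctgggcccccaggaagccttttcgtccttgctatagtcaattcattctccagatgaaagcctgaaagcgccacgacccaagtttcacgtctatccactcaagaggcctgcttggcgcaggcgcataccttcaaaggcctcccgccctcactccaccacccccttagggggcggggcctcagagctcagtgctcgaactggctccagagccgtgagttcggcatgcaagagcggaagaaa
PSME1: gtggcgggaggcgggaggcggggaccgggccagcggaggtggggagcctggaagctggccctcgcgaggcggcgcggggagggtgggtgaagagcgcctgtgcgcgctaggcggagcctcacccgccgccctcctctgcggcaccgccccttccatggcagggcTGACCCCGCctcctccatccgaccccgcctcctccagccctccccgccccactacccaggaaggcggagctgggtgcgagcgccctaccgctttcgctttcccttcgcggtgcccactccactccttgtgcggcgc
PSME2: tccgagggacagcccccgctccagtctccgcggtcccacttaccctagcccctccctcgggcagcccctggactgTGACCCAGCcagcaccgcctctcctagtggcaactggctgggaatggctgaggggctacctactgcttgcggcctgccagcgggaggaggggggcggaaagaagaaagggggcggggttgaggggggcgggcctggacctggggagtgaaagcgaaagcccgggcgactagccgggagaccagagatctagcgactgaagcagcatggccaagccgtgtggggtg
PSME4: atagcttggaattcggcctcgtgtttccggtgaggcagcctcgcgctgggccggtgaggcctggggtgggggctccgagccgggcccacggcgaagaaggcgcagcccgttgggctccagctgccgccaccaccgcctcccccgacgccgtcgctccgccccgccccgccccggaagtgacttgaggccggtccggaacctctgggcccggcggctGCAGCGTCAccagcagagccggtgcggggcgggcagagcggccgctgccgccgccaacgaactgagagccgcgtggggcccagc
PSMA3: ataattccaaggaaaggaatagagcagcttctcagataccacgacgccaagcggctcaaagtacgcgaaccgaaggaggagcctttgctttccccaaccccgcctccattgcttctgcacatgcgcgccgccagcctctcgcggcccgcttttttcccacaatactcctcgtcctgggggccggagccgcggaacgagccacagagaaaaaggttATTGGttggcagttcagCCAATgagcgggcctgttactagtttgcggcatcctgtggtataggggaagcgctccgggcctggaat
PSMC3: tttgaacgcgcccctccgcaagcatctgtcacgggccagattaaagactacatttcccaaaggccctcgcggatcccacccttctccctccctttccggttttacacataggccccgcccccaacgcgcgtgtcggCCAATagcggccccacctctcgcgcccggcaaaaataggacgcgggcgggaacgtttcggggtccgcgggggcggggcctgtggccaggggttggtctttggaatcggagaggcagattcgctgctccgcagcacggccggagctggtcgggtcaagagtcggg
In these windows PSME1, PSME2 and PSME4 each held 1 response element core, PSMB5 and PSMC3 each held 1 CCAAT box, PSMA3 held 2 CCAAT boxes on opposite strands, and PSMA6 held neither. None of these windows held both motifs. The first base of the core lay 86 bases before the start in PSME1, 175 in PSME2 and 34 in PSME4. Over the 40 proteasome genes with a window, 12 (30%) held the response element core and 18 (45%) held a CCAAT box. Among all 27305 genes with a window of the same length, 13.6% held the former and 35.7% the latter. A match is a description of the letters and not a binding site. For the 12 genes with the core the median log2 difference was -0.16 between the lines and -0.36 with oxamate, and for the 26 kept genes without it 0.17 and -0.29. The 12 include PSME1, PSME2 and PSME4, which are shown here because of their change. For the 17 kept genes with a CCAAT box the medians were 0.29 and -0.37, and for the 21 without it -0.05 and -0.25.

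The comparison of HepG2/metR with HepG2/wild asked how expression differs between the selected, lactate-producing cells and their parental line. Most proteasome genes differed little, and in HepG2/metR 5 lay past the 2-fold threshold on the lower side, namely the catalytic subunit PSMB5, the alpha subunit PSMA6 and the activators PSME1, PSME2 and PSME4. None of the 44 was at least 2-fold higher. Over all genes kept, 17.6% were at least 2-fold lower and 16.6% at least 2-fold higher, so that the 5 of 44 (11.4%) did not exceed the share of all genes. The median log2 change of the 44 was 0.09, with an interquartile range from -0.38 to 0.45, beside a median of 0.02 and a range from -0.65 to 0.64 for all genes kept. Above 0 were 24 of the 44 and below 0 were 20, beside 50.6% and 49.3% of all genes. At a smaller threshold of 0.32 on the log2 scale, a ratio of 5 to 4, 16 genes (36.4%) were higher and 12 (27.3%) lower, beside 36.8% and 35.8% of all genes. Just past the threshold lay PSME4, at -1.37, and just short of it PSMF1, at -0.92.

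**Figure D1:**
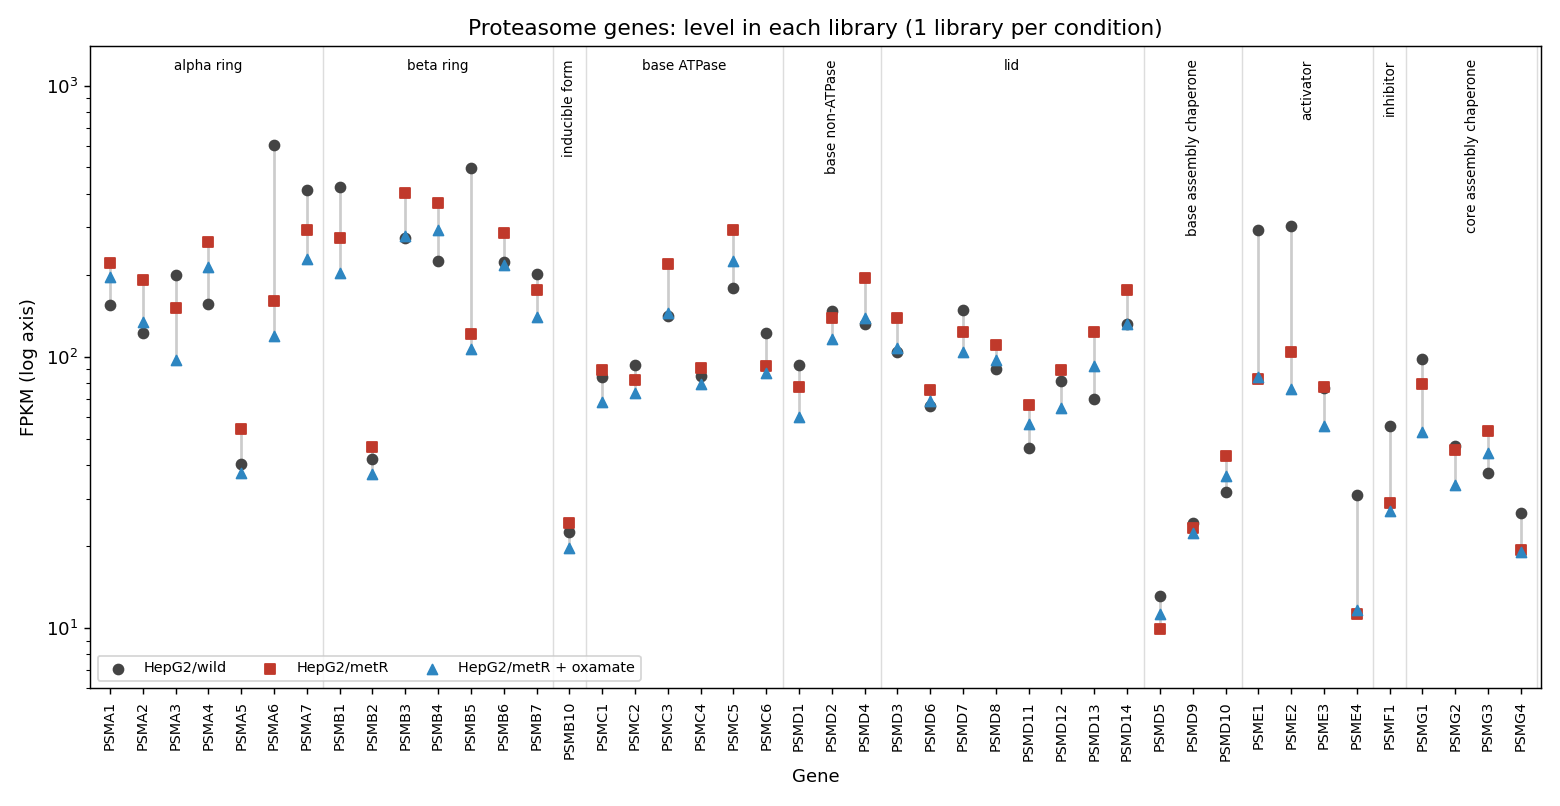
Level of each of the 44 kept proteasome genes in the 3 libraries, in FPKM on a log axis, grouped by role, with 1 point per library and a grey line spanning the 3 values. PSMA6, PSMB5, PSME1, PSME2 and PSME4 stand apart by HepG2/wild values well above their own values in the other libraries. In most genes the oxamate point lies below the HepG2/metR point.

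Among the catalytic subunits, the order of the levels differed between the lines. PSMB5, which carries the chymotrypsin-like activity, was listed at 495 FPKM in HepG2/wild, 122 in HepG2/metR and 107 with oxamate, a log2 change of -2.02 or 4.05-fold lower in HepG2/metR. PSMB6, which carries the caspase-like activity, was listed at 223, 287 and 218 FPKM in the same order, a log2 change of 0.36. PSMB7, which carries the trypsin-like activity, was listed at 203, 176 and 140 FPKM, a log2 change of -0.20. PSMB5 was therefore the highest of these genes in HepG2/wild and the lowest in both HepG2/metR libraries. The ratio of PSMB5 to PSMB6 FPKM was 2.22 in HepG2/wild, 0.424 in HepG2/metR and 0.490 with oxamate. Within the 14 genes of the alpha and beta rings, PSMB5 ranked 2 in HepG2/wild and 12 in HepG2/metR.

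PSMB10 encodes the inducible subunit that takes the place of PSMB7 in the immunoproteasome, the form of the core raised by interferon. It was listed at 22.5 FPKM in HepG2/wild, 24.3 in HepG2/metR and 19.8 with oxamate, or 11.1%, 13.8% and 14.1% of the PSMB7 level. The other inducible subunits lie outside the symbol rule and are given for context. PSMB8, which replaces PSMB5, was listed at 28.1, 40.4 and 33.6 FPKM, and PSMB9, which replaces PSMB6, at 5.14, 18.2 and 14.8 FPKM. PSMB8 was at 5.68% of the PSMB5 level in HepG2/wild and at 33.3% in HepG2/metR, with PSMB5 lower and PSMB8 higher.

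**Figure D2:**
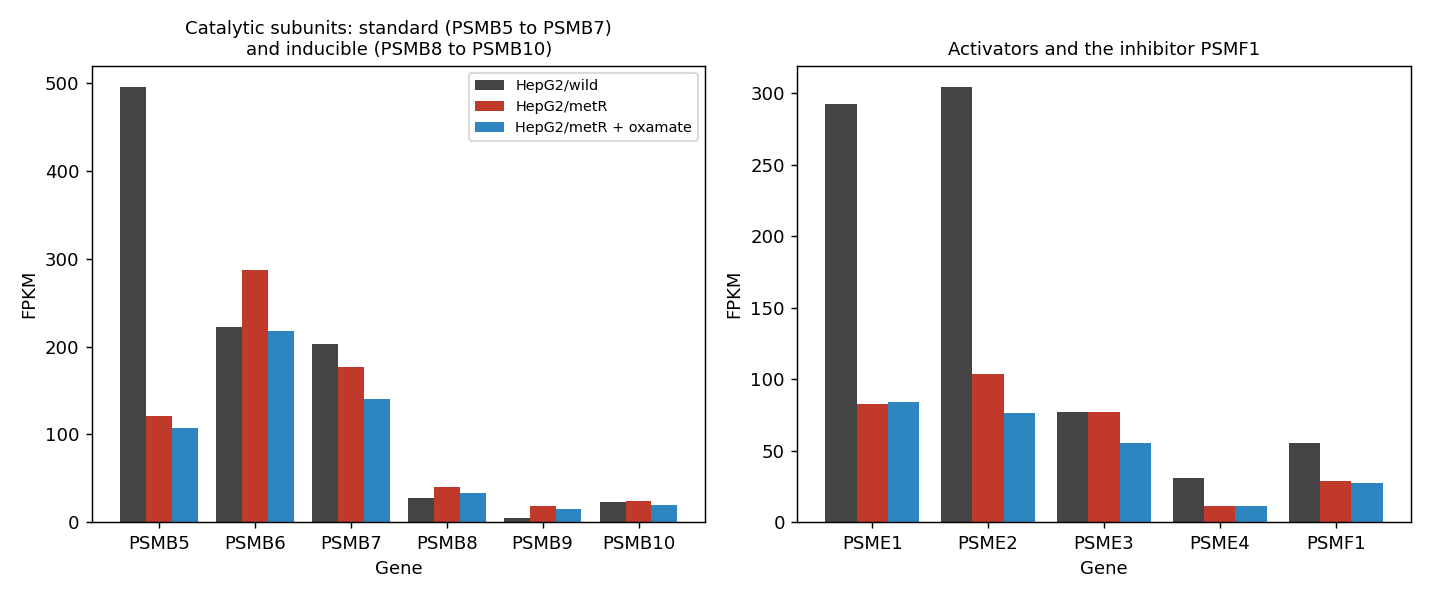
FPKM of the standard and inducible catalytic subunits (left) and of the activators and the inhibitor PSMF1 (right), 1 bar per library. PSMB5 has the tallest bar of its panel in HepG2/wild, 495 FPKM, and stands at 122 in HepG2/metR, whereas PSMB6 and PSMB7 lie between 140 and 287 FPKM in the 3 libraries.

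In the alpha ring, PSMA6 was listed at 606 FPKM in HepG2/wild, 161 in HepG2/metR and 119 with oxamate, a log2 change of -1.90 or 3.74-fold lower in HepG2/metR. It was the highest of the 14 ring genes in HepG2/wild and ranked 10 in HepG2/metR. The 7 alpha genes spanned 15-fold between the highest and the lowest in HepG2/wild and 5.4-fold in HepG2/metR. PSMA4 was listed at 157, 264 and 215 FPKM, PSMA2 at 123, 193 and 134 and PSMA1 at 155, 222 and 196, and these 3 genes were higher in HepG2/metR by 0.75, 0.65 and 0.52 on the log2 scale. PSMA7 was listed at 414, 294 and 230 FPKM, with a log2 change of -0.49, and PSMA3 at 201, 152 and 97.5 FPKM, with -0.40. PSMA5, the lowest of the ring, was at 40.4, 54.4 and 37.3 FPKM. Thus 4 of the 7 alpha genes were higher and 3 lower in HepG2/metR, beside 50.6% and 49.3% of all genes.

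Of the beta subunits without a catalytic site, PSMB3 and PSMB4 were higher in HepG2/metR and PSMB1 was lower. PSMB4 was listed at 226 FPKM in HepG2/wild, 369 in HepG2/metR and 294 with oxamate, a log2 change of 0.71. PSMB3 was listed at 274, 402 and 278 FPKM, a change of 0.55. PSMB1 was listed at 422, 275 and 203 FPKM, a change of -0.61, and PSMB2 at 42.0, 46.4 and 37.0 FPKM, a change of 0.14. Over the 14 ring genes the median log2 change was 0.25, and without PSMA6 and PSMB5 it was 0.39 with a lowest value of -0.61. Their summed FPKM was 3579 in HepG2/wild and 3018 in HepG2/metR, and without PSMA6 and PSMB5, a choice made after seeing the values, 2478 and 2735, so that the order of the sums turned on those genes.

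No gene of the regulatory particle differed by 2-fold, beside 17.6% of all genes at least 2-fold lower and 16.6% at least 2-fold higher. Over the 20 PSMC and PSMD genes the log2 changes went from -0.40 in PSMC6 to 0.82 in PSMD13, with a median of 0.16. Above 0 were 13 of the 20, beside 50.6% of all genes. Among the 6 base ATPases, which form the ring that unfolds the substrate, PSMC5 was listed at 180 FPKM in HepG2/wild, 293 in HepG2/metR and 226 with oxamate, and PSMC3 at 141, 220 and 145, with log2 changes of 0.70 and 0.64. The other ATPases, PSMC1, PSMC2, PSMC4 and PSMC6, lay between 82.2 and 92.3 FPKM in HepG2/metR, with changes from -0.40 to 0.09.

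Of the base subunits that are not ATPases, PSMD4, a ubiquitin receptor, was listed at 132, 196 and 139 FPKM, a log2 change of 0.56 in HepG2/metR. The scaffold subunits PSMD1, at 93.5, 77.2 and 60.1 FPKM, and PSMD2, at 147, 139 and 116 FPKM, had differences of -0.27 and -0.08. In the lid, 7 of 8 genes were above 0, beside 50.6% of all genes, with a median of 0.35. PSMD13 was listed at 69.7, 124 and 92.4 FPKM, 1.77-fold higher in HepG2/metR and the largest difference upward among the 44 genes. PSMD14, the enzyme that removes ubiquitin from the substrate, was listed at 132, 176 and 132 FPKM, a change of 0.41. The other lid genes, PSMD3, PSMD6, PSMD7, PSMD8, PSMD11 and PSMD12, had changes from -0.26 in PSMD7 to 0.52 in PSMD11. The chaperones of base assembly were low in every library, PSMD5 at 13.1, 9.90 and 11.2 FPKM, PSMD9 at 24.4, 23.4 and 22.4 and PSMD10 at 31.8, 43.1 and 36.4.

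Of the 4 activators 3 in HepG2/metR were at least 2-fold lower, beside 17.6% of all genes. Of these, PSME1 and PSME2 lie next to each other but for 1 kept gene on chromosome 14, where 18 of the 19 nearest kept genes around PSME1 were also at least 2-fold lower. PSME1 and PSME2 encode the subunits of the same ring-shaped cap, PA28, which interferon raises and which favours the making of peptides for antigen presentation. PSME1 was listed at 293 FPKM in HepG2/wild, 82.9 in HepG2/metR and 84.1 with oxamate, a log2 change of -1.81 or 3.50-fold lower. PSME2 was listed at 304, 104 and 76.1 FPKM, a change of -1.54 or 2.91-fold lower. Their levels stayed close to each other, with a ratio of PSME1 to PSME2 of 0.963 in HepG2/wild, 0.797 in HepG2/metR and 1.10 with oxamate.

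PSME3, which encodes the nuclear cap PA28-gamma, was level between HepG2/wild and HepG2/metR, at 76.9 and 77.3 FPKM, and was listed at 55.5 FPKM with oxamate. PSME4, which encodes the large single-chain cap PA200, was listed at 30.9, 11.3 and 11.7 FPKM, a log2 change of -1.37 or 2.59-fold lower in HepG2/metR. The inhibitor gene PSMF1 was listed at 55.6, 29 and 27.1 FPKM, a change of -0.92. The core assembly chaperones differed by at most 0.50. PSMG1 was listed at 97.8, 79.3 and 53.0 FPKM, PSMG2 at 46.8, 45.4 and 33.8, PSMG3 at 37.3, 53.2 and 44.2 and PSMG4 at 26.7, 19.4 and 19.2. PSMG1 and PSMG2 act as a pair, as do PSMG3 and PSMG4, and in HepG2/metR only PSMG3 of the 4 was above its HepG2/wild level.

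**Figure D3:**
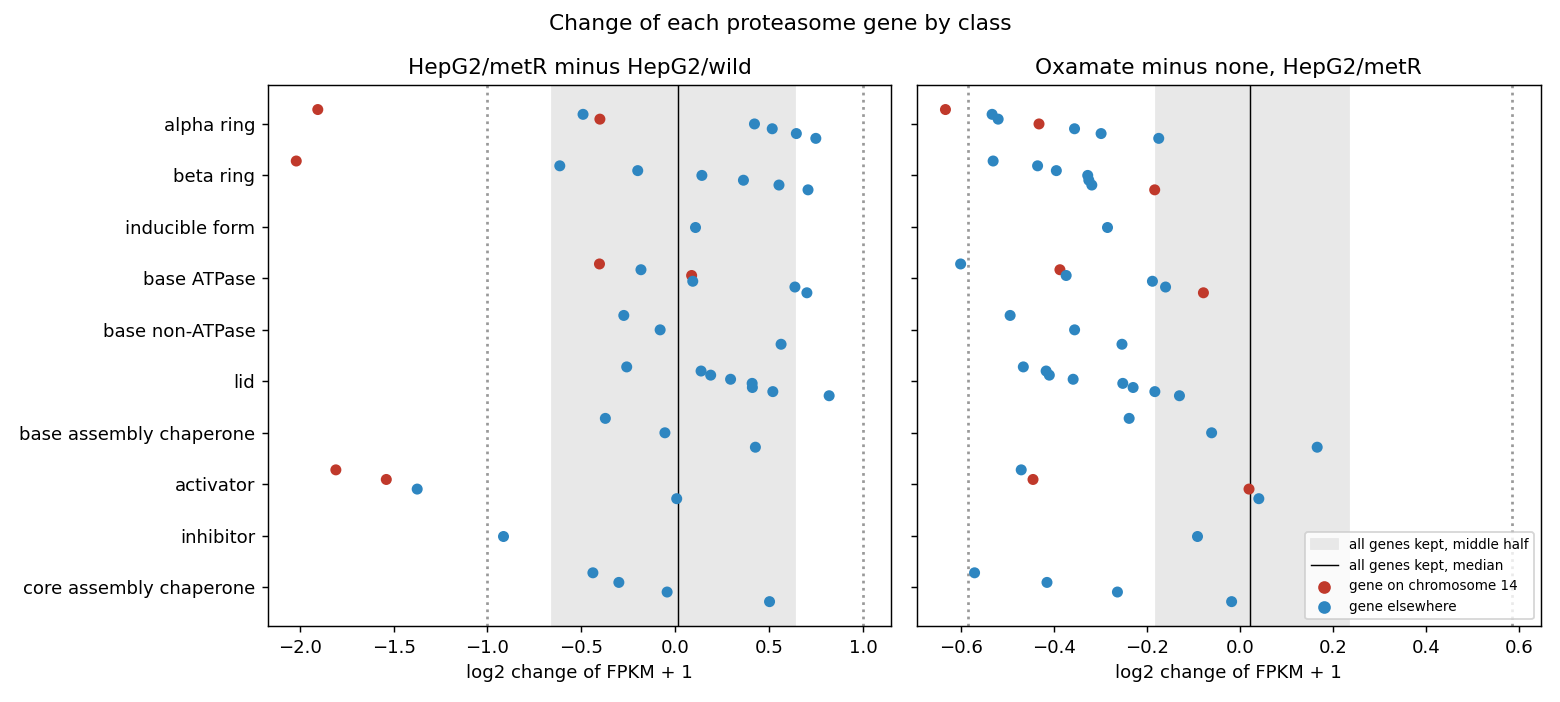
Log2 change of FPKM + 1 of each kept proteasome gene by role, for HepG2/metR minus HepG2/wild (left) and oxamate minus none (right), with the interquartile range of all genes kept in grey, their median as a line and the 2-fold or 1.5-fold thresholds dotted. On the left, 4 of the 5 genes past the threshold are on chromosome 14, and on the right 41 of 44 genes lie below 0.

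Position in the genome was examined because 4 of the 5 genes at least 2-fold lower, PSMB5, PSMA6, PSME1 and PSME2, share chromosome 14, an examination added after their values had been seen. Chromosomes and gene order were taken from the RefSeq table of GRCh38.p14 by gene symbol, since the files hold symbols and no coordinates. Chromosome 14 carries 8 of the 46 proteasome genes, of which 7 were kept, and 4 of these 7 were at least 2-fold lower, against 1 of the 37 kept genes elsewhere. All 395 genes kept on chromosome 14 included 126 (31.9%) at least 2-fold lower, beside 17.6% of all genes. The median log2 change of the chromosome's genes outside the proteasome was -0.46.

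The lower levels also held for most of the genes next to them, though less so around PSMB5. Of the 10 nearest kept genes on each side of PSMA6, 17 of 20 were at least 2-fold lower, with a median log2 change of -1.56. Around PSME1, 18 of 19 were, with a median of -1.86 close to the -1.81 of PSME1 itself, and PSME1 and PSME2, which are separated by EMC9 alone among kept genes, share most of these neighbours. Around PSMB5, 10 of 20 were, with a median of -1.0 beside the -2.02 of PSMB5 itself. Of these 20 neighbours 16 were below 0, and the others were higher, up to 2.99 in RBM23. Over the 59 different neighbours of the 4 genes, 45 were at least 2-fold lower and 55 were below 0. The other 3 kept genes of the chromosome lay among neighbours at ordinary levels. PSMC6, PSMA3 and PSMC1 had changes of -0.40, -0.40 and 0.09, and 1, 1 and 3 of their 20 neighbours were at least 2-fold lower. Around PSME4, on chromosome 2, 4 of 20 neighbours were, with a median of -0.27. The number of gene copies was not measured, and its part in these values was not tested.

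**Figure D4:**
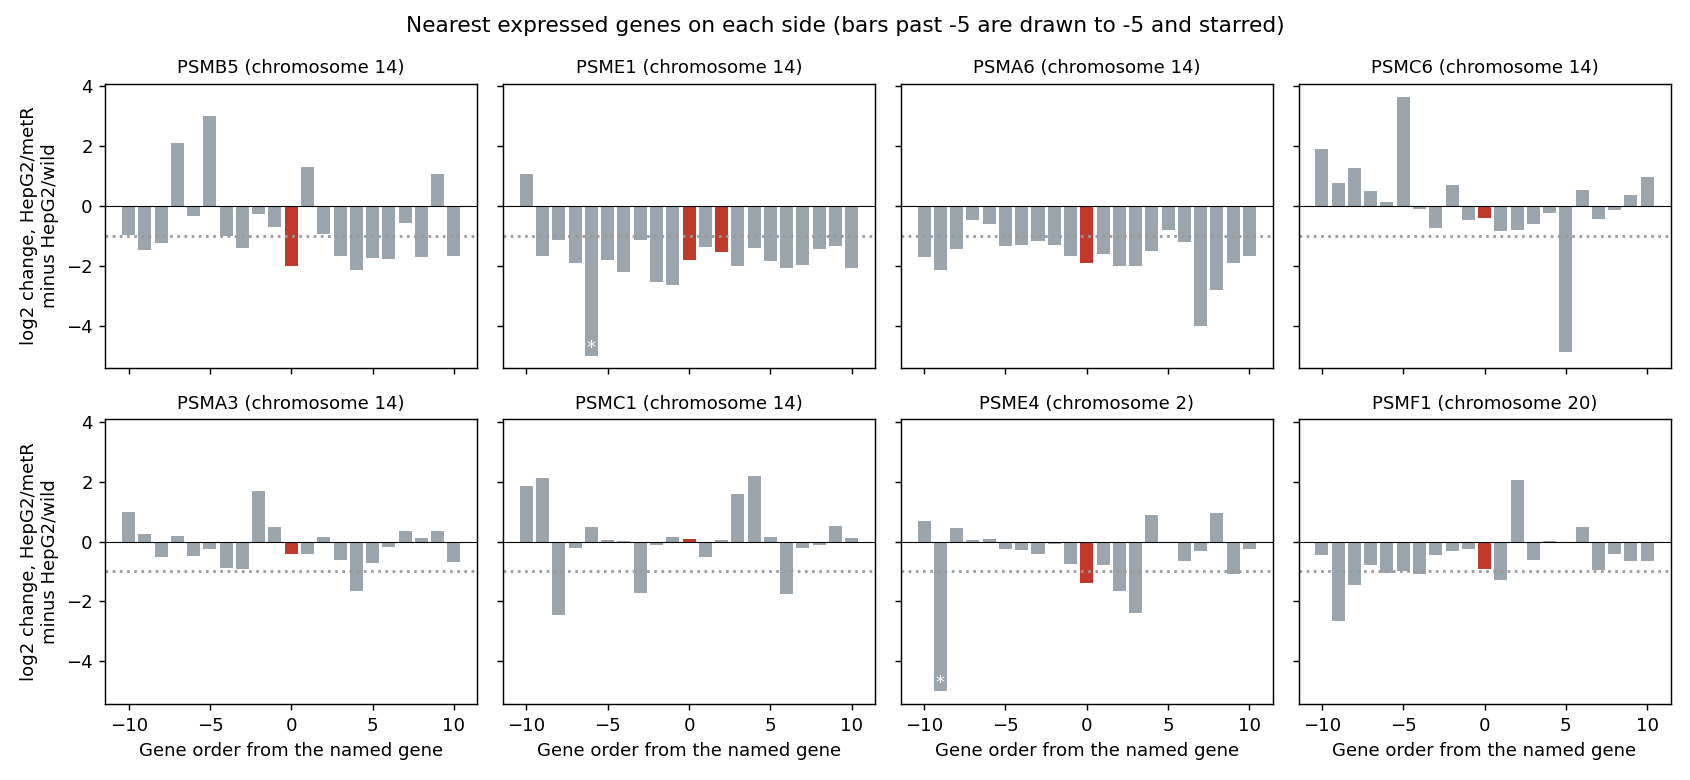
Log2 change of FPKM + 1, HepG2/metR minus HepG2/wild, of 8 proteasome genes (red, at 0 on the horizontal axis) and the 10 nearest kept genes on each side in chromosome order (grey, other proteasome genes red), with the 2-fold line dotted and bars past -5 drawn to -5 and starred. Nearly all bars around PSME1 and PSMA6 reach below -1, whereas those around PSMC6, PSMA3 and PSMC1 point both ways.

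The same relation extended in part to the other chromosomes. The 44 genes lie on 17 chromosomes, whose medians in HepG2/metR, taken over the genes outside the proteasome, went from -0.65 on chromosome 16 to 0.66 on the X chromosome. Of the 22 proteasome genes on chromosomes with a median below 0, 17 were lower in HepG2/metR, with a median log2 change of -0.39, and without the 7 on chromosome 14 these values were 11 of 15 and -0.26. Of the 22 on chromosomes with a median above 0, 19 were higher, with a median of 0.42. All 7 genes of chromosome 17 (PSMB3, PSMB6, PSMC5, PSMD3, PSMD11, PSMD12 and PSME3), all 4 of chromosome 1 (PSMA5, PSMB2, PSMB4 and PSMD4) and all 3 of chromosome 11 (PSMA1, PSMC3 and PSMD13) were above 0. Of these, PSME3 was level at 0.01, and another scaling of the libraries put it at -0.0002. Both genes of chromosomes 6 (PSMB1 and PSMG4), 9 (PSMB7 and PSMD5) and 20 (PSMA7 and PSMF1) were below 0. Other genes differed in sign from their chromosome. PSMD14 lay at 0.41 on chromosome 2, with a median of -0.31, and PSMC1 at 0.09 on chromosome 14, with a median of -0.46. PSMD2 lay at -0.08 on chromosome 3, with a median of 0.05, and upper-quartile scaling put PSMD2 at 0.07. PSMD9 on chromosome 12 and PSMG1 on chromosome 21, with medians of 0.33 and 0.25, lay at -0.05 and -0.30. Scaling the libraries by upper quartile or by common total put PSMD9 above 0, at 0.09 and 0.02. PSMB10 lay at 0.11 on chromosome 16, the chromosome with the lowest median, and on chromosome 7, with a median of -0.10, PSMA2 and PSMG3 were above 0 and PSMC2 below. Spearman's rho between a gene's change and the median of its chromosome was 0.73 over the 44 genes and 0.66 over the 37 outside chromosome 14. Genes of 1 chromosome share that median and all share the libraries, so this is a description. With oxamate the chromosome medians were flat, between -0.00 and 0.06.

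**Figure D5:**
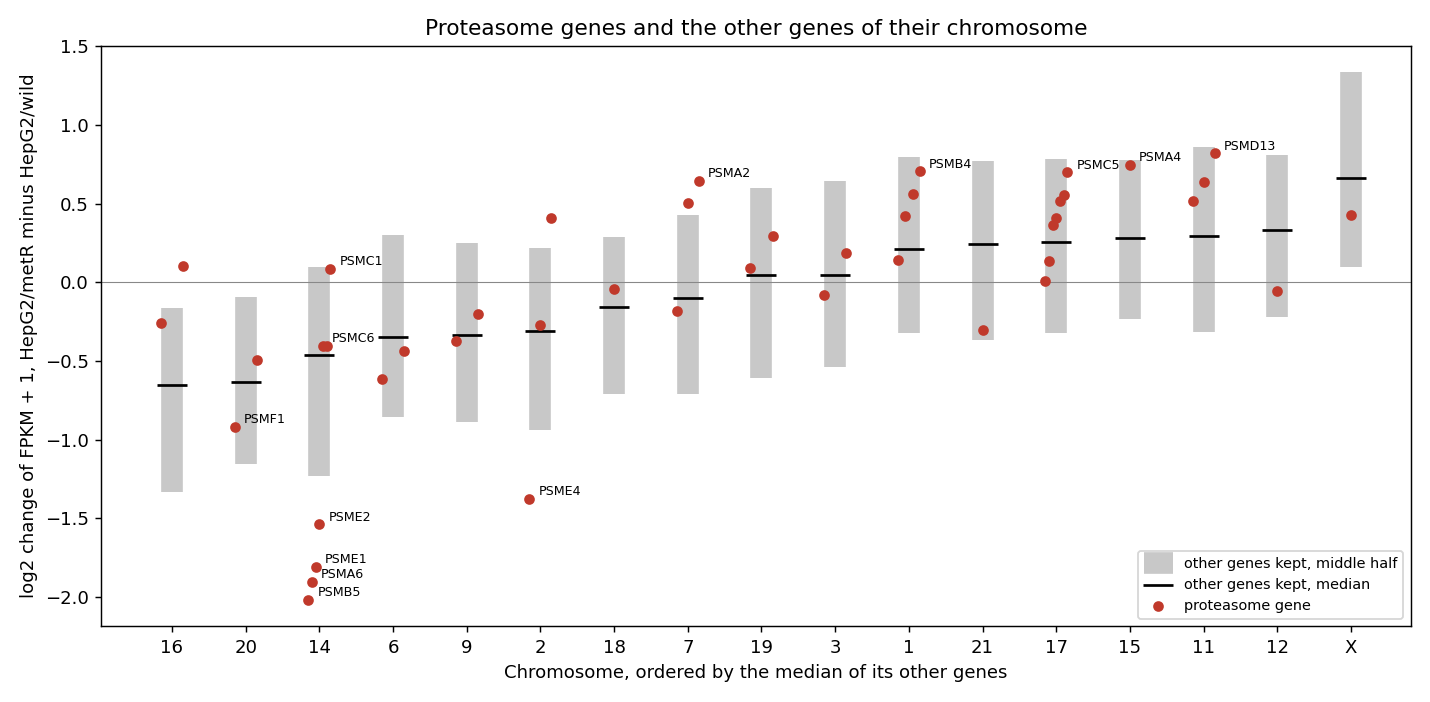
Log2 change of FPKM + 1, HepG2/metR minus HepG2/wild, of each kept proteasome gene (red) above the chromosome it lies on, with the median (black line) and interquartile range (grey) of the chromosome's other kept genes. Chromosomes are ordered by that median, from -0.65 on the left to 0.66 on the right, and PSMB5, PSMA6, PSME1, PSME2 and PSME4 lie below the grey range of their own chromosome.

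Reads of some members could be shared with other genes. In GENCODE release 29, exons of RNF31 overlap those of PSME2 on the opposite strand by 216 bases and exons of EMC9 overlap those of PSME1 by 9 bases, and both neighbours were low, at 28 and 31.7 FPKM in HepG2/wild, 6.16 and 11.5 in HepG2/metR. PSMA6 shares 919 exon bases on its own strand with another annotated protein-coding gene that the files do not list. The same holds for PSMA1 (814 bases), PSMA2 (781), PSMB10 (644) and PSMD9 (1307). The longest overlap, 4671 bases, is that of PSMC1 with NRDE2 on the opposite strand, which was listed at 4.43, 2.83 and 2.67 FPKM. FTSJ3 shares 874 exon bases with PSMC5 on the opposite strand and was listed at 44.1, 66.3 and 53.0 FPKM in the 3 libraries, the same order as PSMC5. SLC22A23, which shares 1388 exon bases with PSMG4 on the opposite strand, was listed at 10.5 FPKM in HepG2/wild and 0.524 in HepG2/metR, beside the -0.44 of PSMG4. Whether the libraries kept strand is not given in the sources used here, and the part of these genes in the values was not tested. Pseudogene copies are annotated for 12 of the 46 genes, 32 in all, with 13 for PSMC1 and 4 for PSMA6. The files list none of these copies, so that the values of the 12 genes are uncertain to the extent that reads were split.

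The comparison of oxamate with no treatment in HepG2/metR asked how expression responds when lactate production is inhibited. Nearly all proteasome genes were somewhat lower with oxamate, by a similar small amount, and few passed the threshold of 1.5-fold. Of the 44, 41 were below 0 and 3 above, with a median log2 change of -0.33 and an interquartile range from -0.43 to -0.18. Of all genes kept, 45.6% were below 0 and 52.9% above, and their median was 0.02 with a range from -0.18 to 0.23. Most proteasome genes are abundant, and abundant genes were mostly below 0 as well. Of the 1605 other genes with a mean of at least 50 FPKM, a limit chosen after seeing the data, 1310 were below 0 and 283 above. At least 1.5-fold lower were 2 genes (4.55%), PSMA3 and PSMC3, against 3.82% of all genes, so that the share at this threshold was near that of all genes. Among the 1605 abundant genes this share was 10.8%. None was at least 1.5-fold higher, beside 4.3% of all genes. Past the smaller threshold of 0.32 on the log2 scale 23 genes (52.3%) were lower, against 13.6% of all genes, and 0 were higher, against 17.1%. No test of these differences is possible with 1 library each, and the comparison shares the HepG2/metR library with the one above.

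PSMA3 differed most with oxamate, from 152 to 97.5 FPKM, a log2 change of -0.63 or 1.55-fold, and PSMC3 the next, from 220 to 145 FPKM, -0.60 or 1.52-fold. Just short of the threshold lay PSMG1, from 79.3 to 53.0 FPKM, at -0.57. Then came PSMA5, from 54.4 to 37.3 FPKM at -0.53, and PSMB3, from 402 to 278 FPKM at -0.53. These 5 genes belong to the alpha ring, the beta ring, the base ATPases and the core assembly chaperones, and thus to no single part of the complex. At the other end lay PSMD5, from 9.90 to 11.2 FPKM at 0.17, PSME4 at 0.04, PSME1 at 0.02, PSMG4 at -0.02 and PSMD9 at -0.06. These genes are activators or assembly chaperones, not subunits of the rings, base or lid. All but PSME1, with a mean of 153 FPKM, were also among the lowest in level. Their means went from 11.4 FPKM in PSMD5 to 23.4 in PSMD9. PSMB10, with a mean of 22.2 FPKM, lay at -0.29. The part of level in this contrast was not tested.

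By class, all 14 ring genes were below 0 with oxamate, with changes from -0.63 in PSMA3 to -0.17 in PSMA1. The medians were -0.43 in the alpha ring, -0.33 in the beta ring, -0.28 in the base ATPases, -0.36 in the other base subunits and -0.31 in the lid. All 17 base and lid genes were below 0, from -0.60 in PSMC3 to -0.08 in PSMC6. The catalytic genes PSMB5, PSMB6, PSMB7 and PSMB10 differed by -0.18, -0.40, -0.33 and -0.29. The classes that are no part of the standard complex were more mixed, and several of their genes were also low in level. Of the activators, PSME2 and PSME3 differed by -0.45 and -0.47 and PSME1 and PSME4 by 0.02 and 0.04, so that PSME1 and PSME2, subunits of 1 cap, differed. The base assembly chaperones had a median of -0.06, and PSMF1 lay at -0.09. PSMG1 and PSMG2 differed by -0.57 and -0.42, PSMG3 and PSMG4 by -0.26 and -0.02.

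Abundant genes were lower with oxamate more widely. Proteasome genes are abundant, 33 of the 44 with a mean of at least 50 FPKM, and of these 33, 21 (63.6%) were lower by at least 0.32 on the log2 scale. Of the 1605 other genes at that level, a limit chosen after seeing the data, 36.1% were, with a median log2 change of -0.24. After scaling of the libraries to 1 common FPKM total, the median of all genes was 0.17, 35 proteasome genes were below 0 and 9 above, and their median was -0.15, or -0.32 relative to all genes. Under that scaling 6 of the 44 were lower by at least 0.32, beside 6.31% of all genes. The share of the other abundant genes was not computed under that scaling, and the part of level was not tested. Summed FPKM of the 44 genes was 6456 in HepG2/wild, 5805 in HepG2/metR and 4519 with oxamate, or 1.15%, 1.09% and 0.954% of the FPKM of all genes.

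Other large complexes were set beside the proteasome. The COP9 signalosome resembles the lid in structure. All 9 of its genes were below 0 with oxamate, beside 45.6% of all genes, with a median of -0.29. In the cytosolic chaperonin, which folds actin and tubulin, all 8 genes were below 0, with a median of -0.34. The median of -0.33 in the proteasome lay between these values, and nothing here sets the proteasome apart from them with oxamate. In HepG2/metR against HepG2/wild the medians were 0.28 for the COP9 signalosome, 0.05 for the chaperonin and 0.09 for the proteasome. In the COP9 signalosome and the chaperonin 0 genes were at least 2-fold lower, beside 17.6% of all genes. At least 2-fold higher was 1 in each, COPS6 (11.1% of its complex) and CCT8 (12.5%), beside 16.6% of all genes.

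Partners of the proteasome outside the symbol rule followed from a list of 15 genes, all kept. In HepG2/metR 1 of them (6.67%) was at least 2-fold lower and 0 at least 2-fold higher, beside 17.6% and 16.6% of all genes. The former was AKIRIN2, which carries proteasomes into the nucleus, at 34.7 FPKM in HepG2/wild, 12 in HepG2/metR and 10.3 with oxamate. The ubiquitin receptor ADRM1 was listed at 174, 117 and 100.2 FPKM, the core maturation factor POMP at 85.4, 100.1 and 73.0 and the small lid subunit SHFM1 at 589, 504 and 429. With oxamate 10 of the 15 were below 0, 0 passed 1.5-fold, and the median was -0.22. All 6 genes that supply or activate ubiquitin were below 0 with oxamate, beside 45.6% of all genes, with UBA6 almost level at -0.007. Apart from UBA6 they had a mean of at least 50 FPKM. Of the 1605 genes outside the proteasome at that level 1310 were below 0. UBB, a polyubiquitin gene, was the 1 at least 1.5-fold lower, beside 3.82% of all genes, at 611, 749 and 465 FPKM.

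Genes that govern transcription of the proteasome were taken from a list of 12. In HepG2/metR 3 of the 12 were at least 2-fold higher and 2 at least 2-fold lower, beside 16.6% and 17.6% of all genes. NFE2L3, a relative of NFE2L1, was listed at 7.54 FPKM in HepG2/wild, 51.0 in HepG2/metR and 45.8 with oxamate. The small MAF gene MAFF was listed at 5.19, 14.4 and 11.9 FPKM and the NF-Y subunit gene NFYB at 8.76, 20.1 and 17.9. Lower were NFE2L2, at 90.4, 39.3 and 38.3 FPKM, and DDI2, which encodes the protease that cleaves NFE2L1 into its active form, at 10.03, 3.73 and 3.79. NFE2L1 itself was listed at 85.6, 99.6 and 99.8 FPKM. With oxamate the median of the 12 was -0.02, none was at least 1.5-fold lower, and MAFK was the 1 that passed 1.5-fold higher, beside 3.82% and 4.3% of all genes, from 16.0 to 26.5 FPKM.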

How the data were processed

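RNA was sequenced by the authors from HepG2/wild, from HepG2/metR, and from HepG2/metR after oxamate, 1 library each. The deposited values are log2(FPKM + 1), 1 per gene symbol, a unit read from the values. The submitters' processing notes name hg19, STAR 2.5.1b, FastQC 0.11.5 and Cufflinks 2.2.1 with no role. The annotation and filters are not given in the sources used here. The number of reads is unknown, so no counting interval is given.

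Values were used as deposited. Differences of log2 values include the pseudocount of 1, which understates changes of low genes. Genes with a mean of at least 1 FPKM were kept. Thresholds of 2-fold for HepG2/metR and 1.5-fold for oxamate follow the study's methods, and a ratio of 5 to 4 (0.32 on the log2 scale) was added. Without replicates no p-value was computed. The calculation was tested on simulated data. Of the genes kept, 12020 (98.4%) had a chromosome by symbol.

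The proteasome genes and all gene lists were chosen with earlier results of these data known. Values in every library were given for the catalytic subunits, all genes past a threshold, the 5 highest and 5 lowest differences of either comparison, the activators, PSMF1 and the PSMG genes, and for further genes where a class is described. Alternatives were other pseudocounts, filters, scalings and thresholds. Promoters and gene positions came from RefSeq (GRCh38.p14), in which 40 of 46 symbols had a promoter. Exon overlaps came from GENCODE 29. The scripts ran under Python 3.11 (numpy 2.4.6, with tables in pandas 2.3.3, correlations from scipy 1.17.1 and plots from matplotlib 3.10.9).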

Additional observations from a re-analysis of the deposited data

How the results depend on the processing

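A pseudocount of 0.1 or 0, dropping the filter or raising it to 5 FPKM, and median-of-ratios scaling left each count of proteasome genes past a threshold at its value and moved each median by at most 0.1 on the log2 scale. With upper-quartile scaling 1 gene was at least 1.5-fold lower with oxamate, and the median in HepG2/metR was 0.24, with the median of all genes at 0.15. Under scaling to 1 common total, 0 genes were at least 1.5-fold lower with oxamate and the median was -0.15. At a ratio of 5 to 4, 16 genes were higher and 12 lower in HepG2/metR, and 23 lower with oxamate. At 1.5-fold 6 were higher and 7 lower in HepG2/metR, and at 2-fold 0 were lower with oxamate. The share of all genes past 1.5-fold in HepG2/metR or past 2-fold with oxamate was not computed. Nor was the 1.5-fold share with oxamate under the other scalings. These counts therefore have no background beside them. Without the genes on chromosome 14, an alternative chosen after seeing the data, 1 (PSME4) was past 2-fold on the lower side in HepG2/metR and 1 (PSMC3) at least 1.5-fold lower with oxamate. No gene past a threshold changed sign under any pseudocount or scaling. No paired analysis was possible because each condition has 1 library, and for the same reason no library could be left out.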
